A study of Rattus norvegicus with 6 samples.

Results

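The genes described here are long non-coding RNAs (lncRNAs) other than the targeted RNA Tug1, in rat H9c2 cells in which Tug1 was cut with an antisense oligonucleotide. A set of 8 names was taken, namely Dancr, Gas5, Snhg4, Snhg11, H19, Malat1, Neat1 and Meg3, and a gene was reported where at least 10 counts were present in at least 3 libraries. Of the 40456 genes in the table, 5 carried such a name and 4 of these (Dancr, Gas5, Snhg4 and H19) were reported, each with at least 10 counts in all 6 libraries. The names were chosen by their counts and fold changes in this same comparison, which were known from the start, so the values of the members are a description and no p-value is given for them. The count minimum lay between Snhg4, with 42 to 103 counts per library, and Snhg11, with 0 to 5.

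H9c2 is an established rat cardiomyoblast line from embryonic heart, here the clone (2-1) with the wild-type genotype in every library. Cells of both groups were kept for 5 days in 1% serum with 1 µM retinoic acid and then received a gapmer made with locked nucleic acid, at 25 nM over 24 h. A gapmer is a short oligonucleotide whose DNA core recruits RNase H to the matching RNA. The control group (3 libraries) received the negative control gapmer and the knockdown group (3 libraries) the Tug1 gapmer, so both groups carried lipid transfection reagent and an oligonucleotide, and Tug1 was addressed by a single sequence. The labels do not say whether replicates were separate cultures, so the spread between libraries may be technical.

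A lncRNA acts as RNA and not through a protein. Several of the genes here are host genes of small nucleolar RNAs (snoRNAs): the snoRNAs lie in introns, are released from the spliced-out intron and guide chemical modification of ribosomal and other RNAs, while the spliced exons form the lncRNA. Dancr is named for holding progenitor cells back from differentiation. Gas5 (growth arrest-specific 5) accumulates when growth stops, and its spliced RNA is known to be removed by nonsense-mediated decay while it is translated. H19 is an imprinted lncRNA expressed from the maternal allele, abundant in fetal tissue and muscle, and the source of the microRNA miR-675. Its imprinted neighbour Igf2 encodes an insulin-like growth factor.

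The sequences of the 2 oligonucleotides are shown because they are the only difference between the groups that the labels give. They are written 5′ to 3′ as DNA letters, from the labels.
Tug1 gapmer: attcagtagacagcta
Control gapmer: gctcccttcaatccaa
The start windows of Dancr and Gas5 are shown because both RNAs were lower after knockdown and both genes hold snoRNAs. Each runs from 250 bases before to 50 bases after the start annotated by RefSeq on GRCr8, 5′ to 3′ on the gene's strand, at chr14:34481983-34482282 (minus strand) for Dancr and chr13:75836713-75837012 (plus strand) for Gas5. Capitals mark 6 motifs, searched on both strands: the cyclic AMP response element TGACGTCA, the TATA-type motifs TATAAA and TATATA, the CCAAT box written CCAAT, the GC box core GGGCGG and the E-box CACGTG.
Dancr: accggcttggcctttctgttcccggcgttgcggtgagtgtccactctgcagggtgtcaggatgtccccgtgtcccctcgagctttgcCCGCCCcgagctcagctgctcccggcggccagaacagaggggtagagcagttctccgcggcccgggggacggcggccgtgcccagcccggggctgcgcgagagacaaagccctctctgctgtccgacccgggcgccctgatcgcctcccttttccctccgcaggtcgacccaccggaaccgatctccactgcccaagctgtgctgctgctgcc
Gas5: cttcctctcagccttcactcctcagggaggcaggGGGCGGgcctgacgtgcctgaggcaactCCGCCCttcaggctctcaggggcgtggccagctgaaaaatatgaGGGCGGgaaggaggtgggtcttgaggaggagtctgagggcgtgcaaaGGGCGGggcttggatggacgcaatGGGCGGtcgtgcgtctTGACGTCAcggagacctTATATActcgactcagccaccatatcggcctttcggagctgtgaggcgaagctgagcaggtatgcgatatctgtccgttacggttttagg

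The Gas5 window held 5 copies of GGGCGG, with 1 copy each of TGACGTCA and of TATATA. The Dancr window held 1 copy of GGGCGG and none of the other 5 motifs. Whether transcription begins at the annotated starts in these cells was not tested. Of all 33469 RefSeq windows of this length, 33.1% held GGGCGG, 1.83% TGACGTCA, 6.15% TATATA, 14.2% TATAAA, 37.5% CCAAT and 6.42% CACGTG. The longest run within the first 50 transcribed bases that could pair with the Tug1 gapmer was 6 bases in Dancr, a length that 10.9% of all windows reached, and 5 bases in Gas5 and in Snhg4, which 38.5% reached. Transcript sequence beyond those 50 bases was not analysed here.

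Total counts ran from 12978548 to 13544337 per library, and 3 counts, taken as the detection limit, corresponded to 0.217 to 0.232 CPM, the count scaled to a common library size. This limit covers counting error only, because copies made by PCR were not told apart by molecular identifiers. The markers of skeletal myoblasts Myog and Myh3 reached 271 to 512 and 170.1 to 295 CPM, and the cardiac troponin gene Tnnt2 335 to 439 CPM. The labelled cell type is cardiomyocyte, but of 8 cardiomyocyte markers the cardiac myosin genes Myh6 and Myh7 and the release channel Ryr2 had at most 3 counts in every library. The summed level of 6 skeletal myoblast markers was 545 to 562 CPM in controls and 837 to 881 CPM after knockdown, that of the 8 cardiomyocyte markers 345 to 379 and 407 to 458 CPM, and that of 6 fibroblast markers 37180.0 to 38869 and 32267 to 34930.3 CPM. These sums rest on a few genes, and members of a list moved apart. Of the myoblast markers, Myog and Myh3 made up most of the sum and were higher with Des and Chrna1, Myod1 was lower (mean 59.7 to 47.8 CPM), and Myf5 had at most 1 count in every library. The fibroblast sum was almost wholly Col1a1, which was lower, and Col1a2, which did not pass, while Thy1 was lower, Dcn was higher (mean 403 to 596 CPM), Lum did not pass and Pdgfra was too low to be tested. Smooth muscle markers summed to 890.0 to 990.3 and 1029 to 1189 CPM, endothelial markers to 2.55 to 3.70 and 2.07 to 3.12 CPM, and leukocyte markers to 10.6 to 12.1 and 15.4 to 17.2 CPM. The endothelial sum was almost wholly Tek, which did not pass, and Pecam1, Cdh5 and Kdr had at most 2 counts in every library. Of the leukocyte markers, Ptprc and Adgre1 had 0 counts in every library. Cd68 was higher (mean 3.60 to 7.65 CPM) and Csf1r did not pass. The part of these marker shifts in the results below was not tested.

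Tug1 itself checked the labels. Controls 1, 2 and 3 held 54.7, 52.0 and 55.4 CPM, the knockdowns held 11.9, 11.2 and 12.5 CPM, so that 22.0% of the control mean was left and the groups did not overlap.

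Dancr was the reported gene that differed most. Its reads numbered 946, 913 and 842 in the controls (here and below in the order of replicates 1, 2 and 3), compared with 171, 187 and 153 in the knockdowns. As CPM, the controls stood at 72.6, 70.7 and 64.9, the knockdowns at 12.4, 13.8 and 11.6. Every knockdown library lay far below every control library. The mean went from 69.4 ± 3.97 to 12.6 ± 1.15 CPM (SD, n = 3), which left 18.1% of the control level, and the log2 fold change was -2.46 (SE 0.0798). Counted within each library, Dancr reads per Tug1 read came to 1.33, 1.36 and 1.17 for controls, compared with 1.04, 1.23 and 0.927 for knockdowns. The ranges of this ratio overlapped between the groups. In bulk RNA such as this, fewer cells that express a gene and less RNA per cell cannot be told apart.

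Snhg4, named as a snoRNA host gene although its annotated span holds no snoRNA, was lower by a smaller factor and at a much lower level. The controls gave 87, 103 and 77 reads of it, the knockdowns 45, 42 and 56, or 6.67, 7.97 and 5.94 CPM against 3.26, 3.11 and 4.23 CPM. The groups did not overlap, although the highest knockdown library and the lowest control library were closer to each other than for Dancr. The mean went from 6.86 ± 1.03 to 3.53 ± 0.608 CPM (SD, n = 3), or 51.5% of the control level, with a log2 fold change of -0.96 (SE 0.178).

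Gas5 was lower as well. The controls gave 1396, 1384 and 1344 Gas5 reads, the knockdowns 1003, 1093 and 894. The corresponding CPM were 107, 107 and 104 for controls, compared with 72.7, 80.9 and 67.5 for knockdowns. All control libraries lay close together, and the knockdown libraries were spread more widely below them. The mean went from 106 ± 1.99 to 73.7 ± 6.72 CPM (SD, n = 3), or 69.5% of the control level, with a log2 fold change of -0.52 (SE 0.0606).

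H19 moved the other way and by little. It was abundant, taking 0.913% to 0.923% of each control library's counts, and 0.998% to 1.11% of each knockdown library's. The controls stood at 9370.1, 9337 and 9368 CPM, the knockdowns at 10945, 9869 and 10566 CPM. The lowest knockdown library, replicate 2, was still above the highest control library. The mean went from 9358 ± 18.7 to 10460.1 ± 545 CPM (SD, n = 3), or 112% of the control level, with a log2 fold change of 0.16 (SE 0.0422). The spread between libraries was 0.200% of the mean in controls and 5.21% after knockdown.

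**Figure D1:**
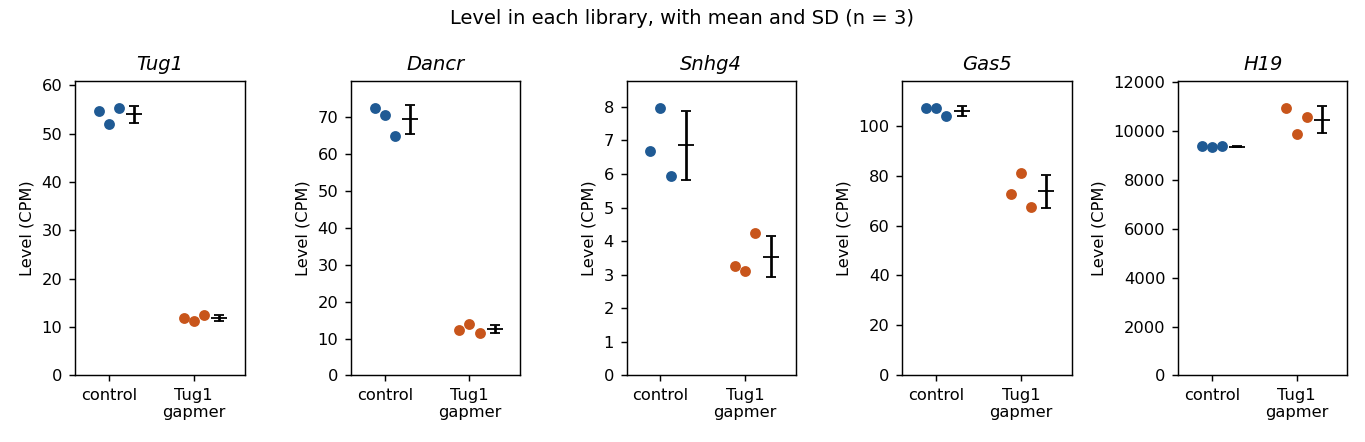
Level of Tug1 and of the 4 reported genes in CPM (vertical axes, each starting at 0) in 3 control libraries (blue) and 3 Tug1 gapmer libraries (orange), with the mean and SD in black. Dancr fell to 18.1%, Snhg4 to 51.5% and Gas5 to 69.5% of the control mean, H19 was at 112%, and no pair of groups overlapped.

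By edgeR's quasi-likelihood test, with p adjusted over all genes, each of the 4 was called at 0.05, 3 lower and H19 higher. A call was made for 61.7% of all 14216 tested genes, 30.9% lower and 30.8% higher, and groups without overlap were found for 65.6%, so a call alone does not set these 4 genes apart. Snhg11 had 1 count in each control library, and 5, 1 and 0 in the knockdowns. Those values are at or near the detection limit, and no fold change is given. Malat1 and Neat1 were not analysed here. For Meg3, an imprinted lncRNA, the row under its older RefSeq name RGD1566401 held 0 counts in every library, which allows up to 3.

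The 4 genes are short: all lay in the lowest decile of tested genes by genomic span, and the median log2 fold change in that decile was -0.21, against 0.33 in the decile of the longest genes and 0.00 over all tested genes. Removing the trend with span from each library, as an offset in the same edgeR fit, gave log2 fold changes of -2.21 for Dancr, -0.58 for Snhg4, -0.35 for Gas5 and 0.35 for H19. All kept their direction and their side of the threshold, and the values of Snhg4 and H19 moved by more than 1.5 times.

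**Figure D2:**
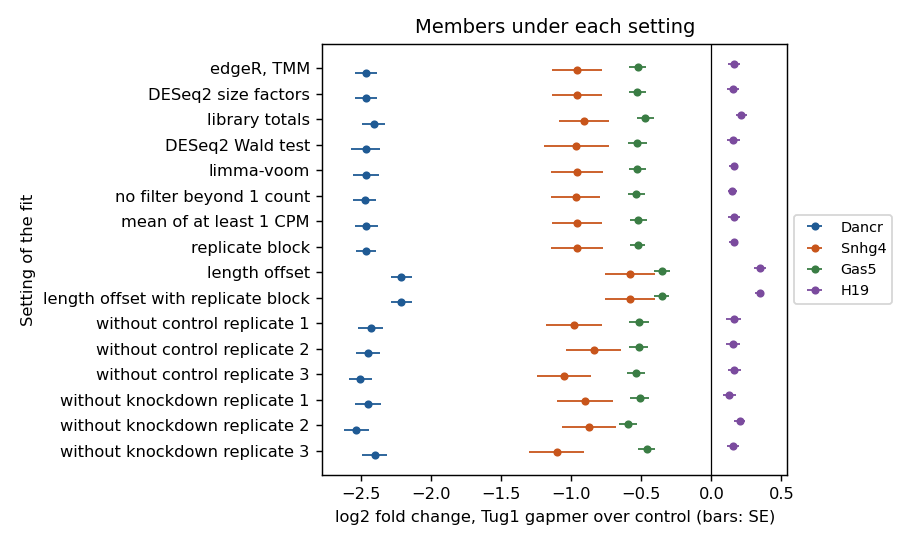
Log2 fold change (horizontal axis, bars: SE) of the 4 reported genes under each setting of the fit (vertical axis). Dancr stayed between -2.53 and -2.21, and H19 between 0.13 and 0.35. The offset for gene length gave the values farthest from the others for all 4 genes.

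Tested lncRNA genes as a class were then set beside the 4 genes. RefSeq gave this class to 752 tested genes, Tug1 and the 4 members included, of which 137 were higher, 189 lower and 426 not called. The called share was 43.4%, against 64.9% of 12216 tested protein-coding genes, and the lncRNA genes had a median level of 1.97 CPM against 30.7 CPM. Among the 89 lncRNA genes with a mean of at least 10 CPM, 25 were higher and 38 lower, and their median log2 fold change was -0.08. Dancr had the lowest log2 fold change of those 89 genes, Tug1 ranked 2 from the bottom, Gas5 26 and H19 60.

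A feature that Dancr and Gas5 share is an annotated snoRNA within the gene, 1 in Dancr and 9 in Gas5. Snhg4 has the snoRNA gene Snora74a as its nearest neighbour of that kind, outside its short annotated span. None of 17 other snoRNA host genes listed by symbol had a row under that symbol, which does not show that they were not expressed. Hosts were therefore found by position, as lncRNA genes whose RefSeq span holds a snoRNA. This class was drawn up after the values had been seen. Of 16 such tested genes, 13 were lower, 0 higher and 3 not called, with a median log2 fold change of -0.67. Without Dancr and Gas5, 11 of 14 were lower and 0 higher. With the length offset 1 of the hosts not called, LOC100911266, became higher, at 0.21. Of the 736 other tested lncRNA genes, 176 were lower and 137 higher, with a median of -0.05. Snhg4, whose span holds no snoRNA, was counted among these 736 and among the 176 lower.

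The host lncRNAs were more abundant than other lncRNAs, with a median level of 29.8 against 1.95 CPM, so the counts were repeated at a mean of at least 10 CPM. There 10 of 11 host lncRNAs other than Dancr and Gas5 were lower and 0 higher, against 26 lower and 25 higher among the 76 lncRNAs without a snoRNA, Tug1 and H19 included, whose median log2 fold change was -0.02. Of 316 tested protein-coding genes with a snoRNA inside, 105 were lower and 97 higher, with a median of -0.02. Those genes are far longer than the host lncRNAs, and fold changes varied with length. With the length offset, 11 of the 14 hosts other than Dancr and Gas5 were lower and 1 higher, against 155 lower and 161 higher of the 736 lncRNAs without a snoRNA, and 124 lower and 76 higher of the 316 protein-coding genes. No test was made of the host class as a set, and whether the authors' counting used strand is not given in the sources used here, so reads of a host gene and of the snoRNA gene inside it may not be separated.

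The host lncRNA nearest to Dancr in size of change was LOC100909675, whose span holds Snord93. The controls stood at 78.9, 72.5 and 73.5 CPM, the knockdowns at 17.2, 22.3 and 22.3 CPM. Its groups did not overlap, and 27.4% of the control level was left (log2 fold change -1.87, SE 0.0804). The gene was picked by its fold change, so no p-value is given for it. The other host lncRNAs with at least 2 snoRNAs inside that were lower were LOC102549726 with Snord48 and Snord52 (-0.96), LOC100912041 with 7 snoRNAs (-0.85), LOC100911177 with 3 (-0.67), LOC100911534 with 3 (-0.61) and LOC120102992 with 4 (-0.37). LOC100911534 is also the nearest tested lncRNA gene to Snhg11, and it went from 23.7 ± 1.71 to 15.6 ± 3.24 CPM (SD, n = 3). LOC100911266, with 2 snoRNAs inside, had a log2 fold change of 0.02 (SE 0.0758) and did not pass in the fit without the length offset.

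**Figure D3:**
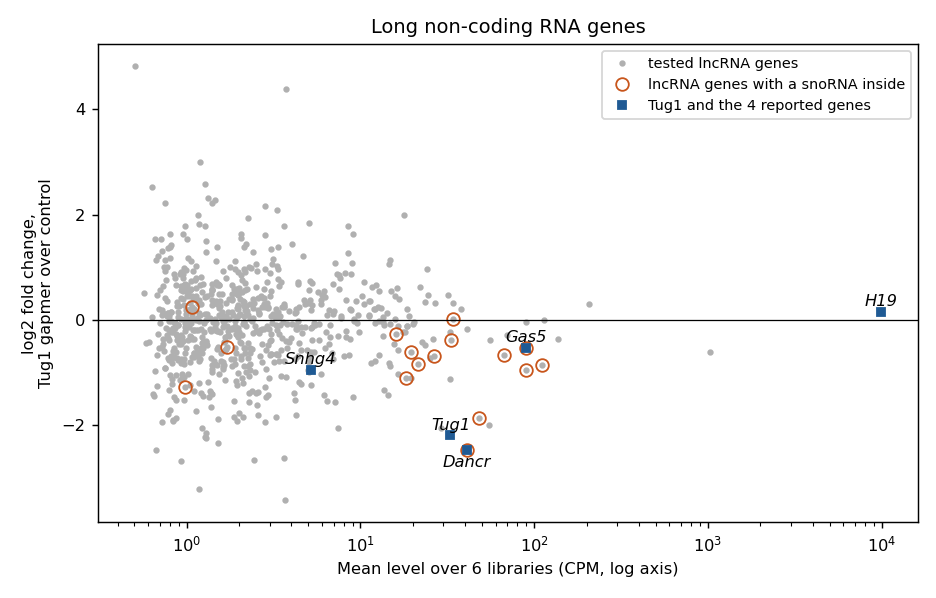
Log2 fold change of Tug1 gapmer over control (vertical axis) against the mean level over 6 libraries (horizontal log axis, CPM) for 752 tested lncRNA genes, with the 16 genes that hold a snoRNA circled in orange and Tug1 and the 4 reported genes as blue squares. Of the circled genes 14 lie below 0, and the 2 above it did not pass the test.

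RefSeq start windows were at hand for 14 of the 16 host lncRNAs. GGGCGG was found in 7 of these and TGACGTCA in 3, namely LOC102547700, Gas5 and LOC108348574. TATAAA was found in 4, CCAAT in 3, and TATATA and CACGTG in 2 each. These letters are a description of the windows and not evidence of binding.

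The snoRNA rows inside Gas5 could be followed on their own, at low counts. Of the 9 snoRNAs annotated there, 7 had a row and 5 were tested. The log2 fold changes of these 5 ran from -1.11 to -0.22, beside -0.52 for Gas5 itself, and 3 of them passed, LOC120096374 (-1.11), LOC120096384 (-0.69) and LOC120096386 (-0.57), each with fewer than 4 CPM on average. None of these 3 calls held under every alternative; with the length offset the values were -0.65, -0.22 and -0.10 and none passed. Libraries made by poly-A selection are not designed to hold mature snoRNAs, which have no tail, and reads of these rows cannot be told apart from unspliced reads of the host gene. Over the whole table, 26 snoRNA genes were tested, of which 13 were lower and 1 higher. Among all tested genes, 30.9% were lower and 30.8% higher.

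The annotated neighbours of the members did not move as a block. On either side of Dancr, the nearest tested genes Rasl11b, a small GTPase of the Ras family, and Usp46, a ubiquitin protease, fell by 1.08 and 0.36 on the log2 scale, less than Dancr. Beside Gas5, the zinc finger gene Zbtb37, which starts on the opposite strand, fell by 0.39. Snhg4 lies within the span of Matr3, which encodes the nuclear matrix protein matrin 3 on the same strand. Opposite to Snhg4, Matr3 rose from 103 ± 6.02 to 121 ± 3.99 CPM (SD, n = 3), by 0.23 on the log2 scale or 0.15 with the length offset. Reads of unspliced Matr3 RNA within Snhg4 cannot be told apart from Snhg4 reads, and their part in the Snhg4 values was not tested. Of the genes flanking that pair, Paip2, a translation regulator, rose by 0.25, and Sil1, a reticulum co-chaperone, was level at -0.0013 (SE 0.106), though with the length offset it was lower, at -0.34.

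Around H19, the mitochondrial ribosomal protein gene Mrpl23 had a log2 fold change of 0.12 (SE 0.0793) and did not pass, whereas with the length offset it was higher, at 0.22. The annotated lncRNA LOC102548505, which overlaps H19, was at 0.979 CPM with a log2 fold change of -0.06 (SE 0.379) and did not pass either. Igf2, the nearest tested gene on the other side and the imprinted partner of H19, fell from 5195 ± 112 to 4696 ± 110.3 CPM (SD, n = 3), by 0.15 on the log2 scale (SE 0.0396, adjusted p 0.00285 by edgeR). The Igf2 value was -0.093 when libraries were scaled by their totals and -0.11 with the length offset, where H19 was at 0.35, and neither gene changed direction or lost its call.

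**Figure D4:**
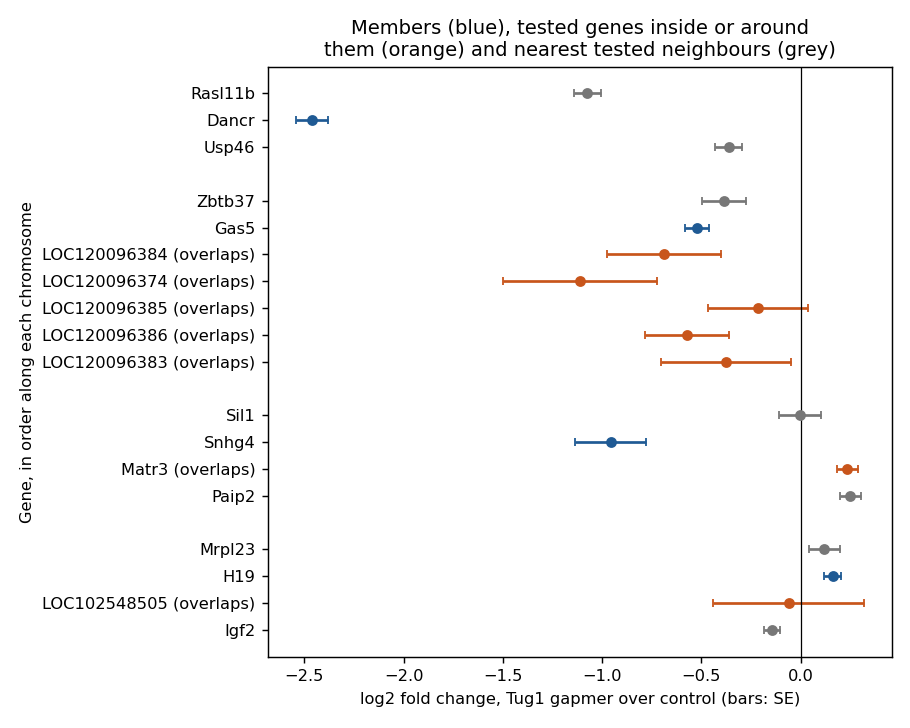
Log2 fold change (horizontal axis, bars: SE) of Dancr, Gas5, Snhg4 and H19 (blue), of tested genes that overlap them (orange) and of nearest tested neighbours (grey, 1 side only for Gas5), in order along each chromosome. Dancr at -2.46 lies far below Rasl11b and Usp46, and Snhg4 at -0.96 lies opposite to Matr3 at 0.23.

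The genes closest to Dancr in profile were found by the root mean square distance between log2 CPM values over the 6 libraries, each centred on the control mean. Genes under a mean of 1 CPM and genes with provisional symbols such as LOC were left out of this search. The host lncRNAs with LOC names could therefore not appear in it. The 5 closest were Slc17a6, a vesicular glutamate transporter (distance 0.0888), Lingo1, a membrane protein known from neurons (0.157), Dusp6, a phosphatase that switches off ERK (0.168), the transcriptional co-regulator Cited1 (0.184) and Sprr1a, a small proline-rich protein (0.189). Of these only Dusp6, which went from 174 ± 4.47 to 35.9 ± 1.21 CPM, and Cited1, which went from 17.3 ± 2.37 to 3.18 ± 0.319 CPM, had more than 10 CPM on average (SD, n = 3). The closest gene was Zc3hav1l to Gas5 (0.0158), Osgin2 to Snhg4 (0.066) and Cltb to H19 (0.0263). These distances mostly follow the difference between the groups, and all genes were measured in the same 6 libraries.

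Other lncRNA genes with established names moved in both directions. Of 37 listed, only 9 had a row under that symbol, and a missing row does not show that a gene was not expressed. Of the 9, 7 were tested, 4 were higher and 1 was lower, with a median log2 fold change of 0.30. The called share was 71.4%, against 61.7% of all tested genes and 43.4% of tested lncRNA genes. Ftx, a regulator of X inactivation, rose by 1.93 (SE 0.273) from 0.925 to 3.56 CPM, and Hotairm1, from the HOXA cluster, rose by 0.89. Pvt1, the neighbour of Myc, was higher by 0.47 and Oip5-as1 by 0.30. Mir155hg, the host of miR-155, was lower, with 32, 23 and 28 reads in the controls but 4, 2 and 3 in the knockdowns. With the length offset, 4 of the 7 passed, and Pvt1, then at 0.14, was the call lost.

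Partners of the members' biology were compared from lists. Each of the 8 core proteins that assemble with snoRNAs fell, with a median log2 fold change of -0.51. Nhp2 (-0.78) and Snu13 (-0.55) were lowest, and fibrillarin, the methylating enzyme encoded by Fbl, was at -0.53. These genes are short, with a median span of 6712.5 bases, and the decile with that span had a median of -0.14. With the length offset Nhp2 was at -0.61 and Snu13 at -0.42. Gas5 is known as one of the transcripts whose start carries a terminal oligopyrimidine tract. The annotated Gas5 start shown above does not begin with such a tract, and the start used in these cells was not tested. Of 16 tested messenger RNAs known for such a tract, ribosomal protein genes left out, 13 fell and 1 rose, with a median of -0.21. The elongation factor gene Eef1b2 (-0.72) and the nucleolar protein gene Npm1 (-0.60) fell most, and Eef1d rose by 0.33. With the length offset Eef1b2 was at -0.53, Npm1 at -0.52 and Eef1d at 0.38. The median over all tested genes was 0.00, and 30.9% of them were lower.

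Factors of nonsense-mediated decay and the exon junction complex, the route that removes spliced Gas5, had no common direction. Of 17 tested, 4 rose and 5 fell, with a median log2 fold change of -0.03. The called share was 52.9%, against 61.7% of all tested genes. The endonuclease Smg6 (0.80) and Nbas (0.55) rose most, at 0.47 and 0.19 with the length offset, while Magoh (-0.46) and Smg8 (-0.44) fell most. The helicase Upf1 went from 105 to 102 CPM and did not pass.

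Of 13 tested genes of the imprinted growth network to which H19 belongs, 5 rose and 5 fell, with a median of -0.13. The zinc finger genes Peg3 (1.35) and Plagl1 (0.95) rose most. Phlda2 (-3.47) fell most, with 48, 71 and 65 reads in the controls but 6, 6 and 5 in the knockdowns, and Peg10 was at -0.89. Of 10 paraspeckle and Neat1 end-processing factors, 6 fell and 1 rose (Sfpq, 0.24), with Nudt21 at -0.74 and Pspc1 at -0.64. A call was made for 76.9% of the imprinted list and 70.0% of the paraspeckle list, against 61.7% of all tested genes. Of RNAs without a poly-A tail, 3 were tested. The ribosomal Rn28s rose by 2.77 (SE 0.289), with 1.93 to 5.37 CPM in controls and 16.7 to 38.8 CPM in knockdowns. Without knockdown replicate 2 its rise was 2.27. Rn45s (-0.02) and the RNase P RNA Rpph1 (0.24) did not pass. The part of poly-A selection in the members' values was not tested.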

How the data were processed

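Poly-A RNA was sequenced from 6 libraries. The values deposited are read counts for each gene symbol, whole numbers that were neither scaled nor pooled. FastQC 0.11.7, fastp 0.14.1 and STAR 2.5 are named in the submitters' processing notes; the counting tool, genome build, annotation and use of strand are not given in the sources used here. Counts were fitted in R 4.3.3 with edgeR 4.0.16: its expression filter (minimum count 10, minimum total count 15) left 14216 of 40456 genes, libraries were scaled by TMM, and the quasi-likelihood test (two-sided, 3 against 3, no block) was adjusted over all tested genes by the Benjamini-Hochberg method, with a call at an adjusted p under 0.05. The script was tested on simulated data. CPM are on the TMM scale. A total of 3 counts was taken as the detection limit.

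The members, lists and tests were chosen with earlier results of these data known. Genes were named by rule: Tug1, the members, their nearest tested neighbours and overlapping genes, the genes closest in profile (log2 CPM, prior count 0.125), and the 2 highest and 2 lowest called genes of each list. Gene classes, neighbour order and start windows came from RefSeq on GRCr8, in which 28446 names matched by current and 1615 by older symbol. The neighbour on 1 side of Gas5 is not reported here. The class of lncRNA genes holding a snoRNA was added after the data were seen. Alternatives were DESeq2 1.42.0 (size factors and Wald test), limma-voom (limma 3.58.1), library totals, other filters, an adjusted p under 0.01, a replicate block, a length offset and leaving out each library. Same-numbered libraries were not treated as pairs, since after centring on their group they correlated at only -0.0053, 0.0298 and 0.027.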

Additional observations from a re-analysis of the deposited data

How the results depend on the processing

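The 4 reported genes kept their direction and their side of the threshold under all 16 alternatives. All alternatives used counts of the same 6 libraries by which the members were chosen, so they are not independent support. An adjusted p under 0.01 changed the threshold only. Across the alternatives, log2 fold changes ran from -2.53 to -2.21 for Dancr, -0.59 to -0.35 for Gas5, -1.10 to -0.58 for Snhg4 and 0.13 to 0.35 for H19. Genes changed numbered 7353 to 8987, with 8128 to 8410 when 1 library was left out, and the host lncRNAs lower 11 to 13. The snoRNA host symbol list gave no value. With library totals the median of all genes was 0.06. Of 58 other genes, taken by the naming rule or as host lncRNAs found by position, 45 kept their direction and call throughout. A replicate block gave 8848 changed genes and -2.46, -0.53, -0.96 and 0.16 for Dancr, Gas5, Snhg4 and H19, and changed no call among them.

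Signs turned only for genes that were not called. Sil1 was at 0.0517 with library totals, 0.0044 with limma-voom, 1.39e-05 at a mean of at least 1 CPM, 0.0013 with the replicate block, and -0.0974 to 0.0647 when 1 library was left out. LOC120096385 was at 0.283 with the length offset and 0.281 with the block added, and LOC120096383 at 0.0929 and 0.0992. Leaving out 1 library gave -0.489 to 0.247 for LOC102548505, -0.0263 to 0.0817 for LOC100911266 and -0.0745 to 0.499 for LOC108348574. The cause was not tested. Depth limits Snhg11 and the snoRNA rows, which lie at a few counts.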
